A study of Rattus norvegicus with 6 samples.

Results

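Protocadherins are the largest group of the cadherin superfamily. The clustered members lie in the alpha, beta and gamma arrays of chromosome 18. In the alpha and gamma arrays each member has its own promoter and its own large first exon, which encodes the extracellular and transmembrane parts and is spliced to last exons common to the whole array. Beta members have no such common exons. Single neurons choose a few of these promoters, so that matching sets of surface proteins mark branches of the same cell; in the retina the gamma array is known for dendrite self-avoidance and neuron survival. The non-clustered members are separate genes that mostly act in cell sorting, axon growth and synapse formation. Every table entry whose symbol starts with Pcdh was taken, 49 of 17366: 15 alpha, 11 beta and 13 gamma members and 10 non-clustered ones, split by symbol.

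The libraries came from retinal ganglion cells (RGCs), the projection neurons of the retina, cultured from Sprague Dawley rats labelled P5. Cultures were grown for 10 days and then held for 12 h with either Chrdl1 at 1 µg/ml or the vehicle, 0.1% BSA with 4 mM HCl. Chrdl1 is a secreted antagonist of bone morphogenetic proteins. Each group had 3 RNA libraries, and no genetic change is labelled. Each of 3 numeric codes in the sample titles occurs in 1 vehicle and 1 Chrdl1 library; these are called pairs A, B and C. The code's meaning is not stated, and neither is the independence of cultures within a group. The p-values therefore reflect variation among these 6 libraries only, which may be technical. One label, for RNA extraction, names visual cortex where the others name RGC culture.

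Levels are FPKM, read numbers scaled by transcript length and library size. The read totals behind this scale ran from 14546600 (vehicle, pair B) to 26551800 (vehicle, pair C). Of 8 listed RGC markers 7 were analysed here (Pou4f1 was not), and all 7 reached 1 FPKM in at least 3 libraries, with a summed level of 2070 to 2328 FPKM in vehicle and 1971 to 2321 FPKM in Chrdl1 libraries. Pair C stood apart in sums of markers of other retinal cells, which rest on few members. Its 6 photoreceptor markers summed to 49.7 FPKM in vehicle and 50.5 FPKM with Chrdl1, against 2.85 to 5.76 FPKM in the other 4 libraries. The most abundant of them was Crx, with a mean of 17.1 FPKM over all 6 libraries. Its 6 amacrine and bipolar markers summed to 50.9 and 54.5 FPKM, against 20.1 to 21.4 FPKM, although the most abundant of them, Prkca, was not higher there, at 5.48 and 8.56 FPKM against 8.48 to 12.3 FPKM. Its 6 endothelial and mural markers summed to 21.5 and 21.9 FPKM, against 5.30 to 9.81 FPKM. The most abundant of them was Pdgfrb, with a mean of 9.33 FPKM over all 6 libraries. Of the photoreceptor, amacrine and bipolar, and endothelial and mural lists, 1, 3 and 2 markers reached 1 FPKM in at least 3 libraries. That count misses markers high in pair C alone. Pair B was low in the 6 microglial markers, at 10.3 FPKM in vehicle and 5.45 FPKM with Chrdl1, against 102 to 135 FPKM elsewhere. The 6 astrocyte and Müller glia markers summed to 52.1 to 89.8 FPKM, led by Glul, and the 6 oligodendrocyte markers to 7.85 to 13.6 FPKM. No marker of these lists was at 0 in all 6 libraries. In bulk RNA, fewer cells of a type and less RNA per cell cannot be told apart.

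The promoters of the beta members are shown first because all 11 of them were matched and their deposited levels differ most within an array. RefSeq promoter windows (assembly GRCr8, 250 bases before to 50 after the annotated start) were matched for 33 of the 49 members, among them all 11 beta and 12 of 13 gamma members but only 1 alpha member. The longest run of letters held by all 11 beta windows was GGTGGCGCTG, on the gene's strand, 52 to 229 bases before the start, with a median of 69. Over both strands, 0.221% of all 33469 windows of this length held them. The run was taken from these sequences themselves, so its frequency is a description. It contains CGCT, the core of the short element known to recur in promoters of clustered protocadherins. The windows of the 4 beta members with the highest level and the 2 with the lowest are given 5′ to 3′ with that run in capitals. They lie on the plus strand of chromosome 18, and that of Pcdhb3 is chr18:29285589-29285648.
Pcdhb3: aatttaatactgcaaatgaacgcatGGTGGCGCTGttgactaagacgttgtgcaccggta
Pcdhb8: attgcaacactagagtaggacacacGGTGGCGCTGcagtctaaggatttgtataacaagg
Pcdhb10: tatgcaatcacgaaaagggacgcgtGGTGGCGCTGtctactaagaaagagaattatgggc
Pcdhb5: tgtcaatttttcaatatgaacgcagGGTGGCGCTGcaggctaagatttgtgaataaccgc
Pcdhb21: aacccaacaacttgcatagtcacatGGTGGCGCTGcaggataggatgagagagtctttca
Pcdhb6: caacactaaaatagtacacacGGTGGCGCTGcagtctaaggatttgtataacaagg
Since the run was defined as held by all 11 beta windows, the highest and the lowest beta members carry it by definition. None of the 12 gamma windows held this run. Of these, 6 held CGCTGTTCACC, the longest run in at least 6 of the 12, which shares CGCTG with the beta run. Over both strands it was in 0.0627% of all windows and in none of the beta ones. It is in capitals for 3 gamma members whose printed windows end before the annotated start.
Pcdhga10: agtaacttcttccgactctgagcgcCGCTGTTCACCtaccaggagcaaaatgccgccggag
Pcdhga8: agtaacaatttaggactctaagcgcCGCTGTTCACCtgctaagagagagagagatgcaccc
Pcdhga9: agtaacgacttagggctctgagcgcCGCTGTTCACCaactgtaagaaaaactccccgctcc
A match of letters is a description and not a site.

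The deposited levels fell into 2 kinds. Alpha and gamma members formed tight bands at high level, and beta and non-clustered members spread widely. The 15 alpha members had mean levels of 32.5 to 40.3 FPKM over the 6 libraries, a ratio of 1.24 between the highest and the lowest. The 13 gamma members had 39.7 to 48.7 FPKM, a ratio of 1.23. The 11 beta members ran from 0.902 to 6.91 FPKM, a ratio of 7.66. The non-clustered members ran from 0.0355 FPKM for Pcdh12 to 29.4 FPKM for Pcdh9. By median, alpha and gamma members stood above 87.6% and 90.0% of all table entries, and beta and non-clustered members above 47.4% and 55.6%.

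**Figure D1:**
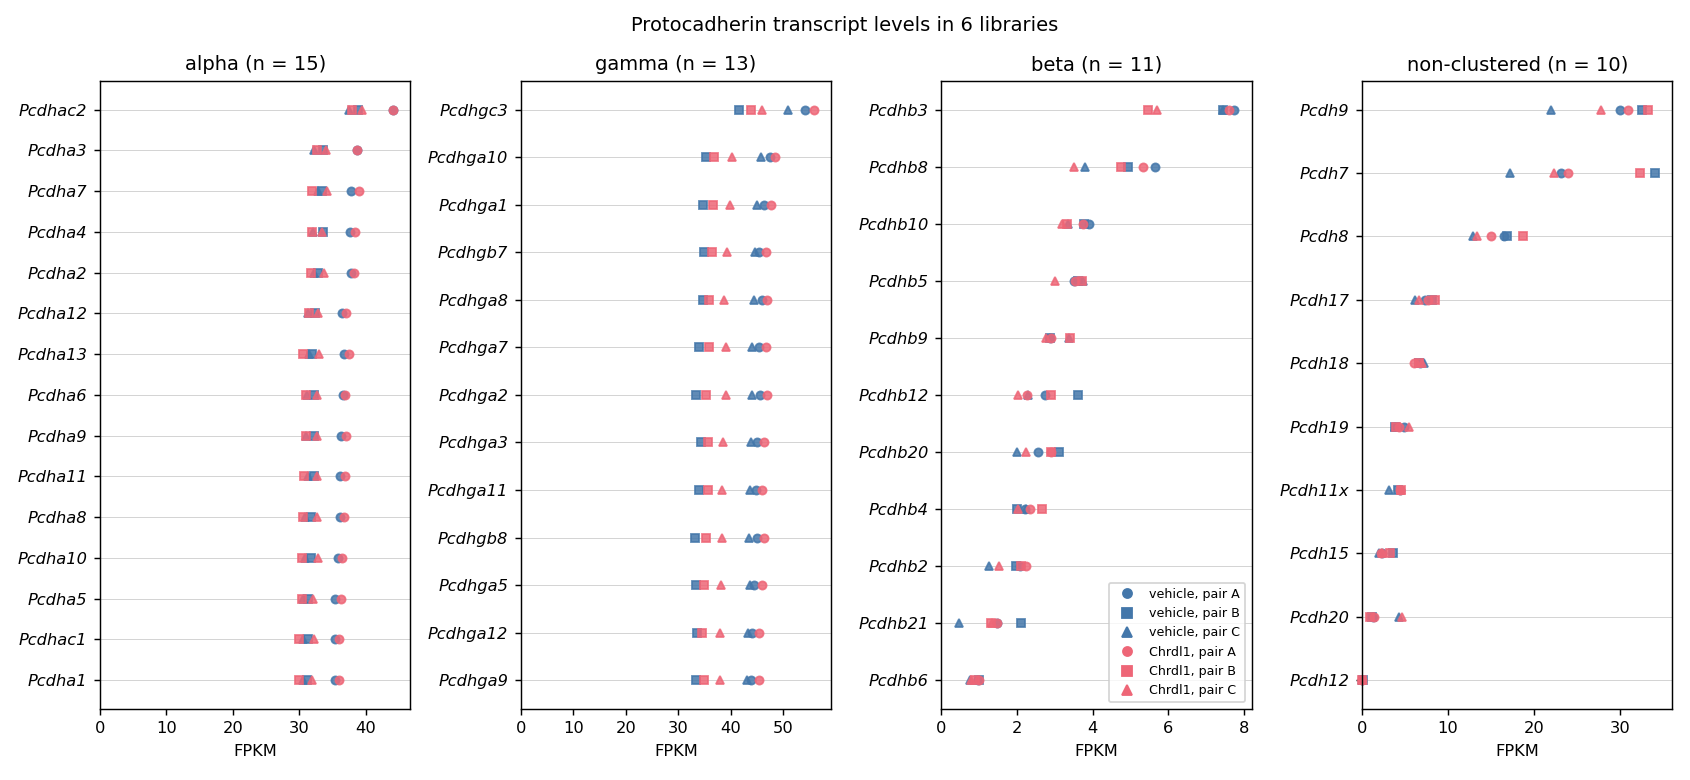
FPKM (horizontal axis, from 0, with its own range in each panel) of all 49 protocadherin transcripts, 1 point per library, with colour for the group and shape for the pair. Alpha and gamma members form bands in which the libraries keep nearly the same order from member to member, while beta members run from 0.902 to 6.91 FPKM on average.

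The members of each band end at the same place in the genome. On rn6, the 15 alpha transcripts start at 15 places spread over 221646 bases, from 29951094 on chromosome 18, and end within 1 base of each other at 30215897. The 13 gamma transcripts start at 13 places over 146148 bases, from 30808404, and end within 2 bases of each other at 30971115. The beta transcripts lie between the arrays, each with its own end, and none spans over 15 bases more than its transcript length, as single exons do. The way the authors' counting handled exons common to several transcripts is not given in the sources used here. Read numbers recovered from the FPKM values show how alike the members are. In the vehicle library of pair A, for example, the lowest alpha member, Pcdha1, had 4536 reads and the highest, Pcdhac2, had 5846. Over the 6 libraries the lowest alpha member held 76.6% to 79.1% of the reads of the highest, and the lowest gamma member 81.0% to 86.8%. If each read in the common exons was counted for every member, the lowest member's count is an upper limit on the common reads, and what another member has above it is a lower limit on the reads of that member alone. Pcdha3 was at 38.7, 33.6 and 32.3 FPKM in vehicle and 38.8, 32.7 and 34.0 FPKM with Chrdl1, Pcdha7 at 37.9, 33.4 and 32.8 and at 39.0, 32.0 and 34.2 FPKM, and Pcdha4 at 37.6, 33.6 and 32.0 and at 38.3, 31.9 and 33.5 FPKM, each in the order of pairs A, B and C. These 3 were thus nearly the same in any one library. So were the gamma members Pcdhga1, at 46.4, 34.7 and 44.9 and at 47.6, 36.5 and 39.9 FPKM, and Pcdhgb7, at 45.3, 34.9 and 44.6 and at 46.7, 36.3 and 39.2 FPKM. Under that reading, which was not tested, the alpha and gamma values are not 28 separate measurements, and their deposited FPKM is not the level of single members.

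In each array the same member had the most reads above the lowest member in all 6 libraries, while many lower places changed between libraries. In the alpha array Pcdhac2, known for the tiling of serotonergic axons, was highest in all 6 libraries. Its deposited level was 44.1, 38.8 and 37.5 FPKM in vehicle (in the order A, B, C, as throughout) and 44.1, 38.0 and 39.5 FPKM in Chrdl1 libraries. It had 53.5, 46.9 and 42.5 RPM (reads scaled to the library's read total) above the lowest member in vehicle, and 49.8, 48.1 and 46.2 in the Chrdl1 libraries. These came from 682 to 1310 reads per library and made up 33.7% to 39.7% of all such reads of the array. The next 4 places were held in every library by Pcdha3, Pcdha7, Pcdha4 and Pcdha2, with means of 12.3, 11.1, 10.2 and 9.91 RPM, and their order changed from library to library. Pcdha3 had 16.8, 12.0 and 8.29 in vehicle and 13.7, 13.3 and 9.79 in Chrdl1 libraries. The other members ranged down to 1.82 RPM for Pcdhac1, which ranked 13 or 14 of 15 everywhere. Pcdha1 was the lowest in all 6 libraries, at 157 to 189 RPM in full. Of the C-type alpha members, Pcdhac2 was thus at the top of the array and Pcdhac1 near its bottom.

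The gamma array was led by Pcdhgc3 in all 6 libraries, the only C-type gamma member among those taken. Its deposited level was 54.2, 41.6 and 50.9 FPKM in vehicle and 55.7, 43.8 and 46.0 FPKM in Chrdl1 libraries. It had 41.8, 35.2 and 30.7 RPM above the lowest member in the vehicle libraries and 42.2, 38.0 and 32.2 in the Chrdl1 libraries. That was 39.5% to 48.0% of such reads of the array. Pcdhga10, at 47.5, 35.3 and 45.7 FPKM in vehicle and 48.4, 36.8 and 40.2 FPKM with Chrdl1, was next in all 6 libraries by reads above the lowest member, at 15.03, 9.14 and 10.7 in vehicle and 12.5, 8.74 and 9.05 in Chrdl1 libraries. Pcdhgb7 and Pcdhga7 followed, with means of 6.88 and 6.70 RPM. The lowest member changed between libraries among Pcdhga9, Pcdhga11, Pcdhga12 and Pcdhgb8, so these 4 cannot be ranked at this depth. C-type members are known as the ones that neurons express most steadily, outside the choice among the other promoters. The lengths of the first exons were not used here, so these values are reads and not levels per length; whole alpha transcripts differ by at most 207 bases and whole gamma transcripts by 213.

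**Figure D2:**
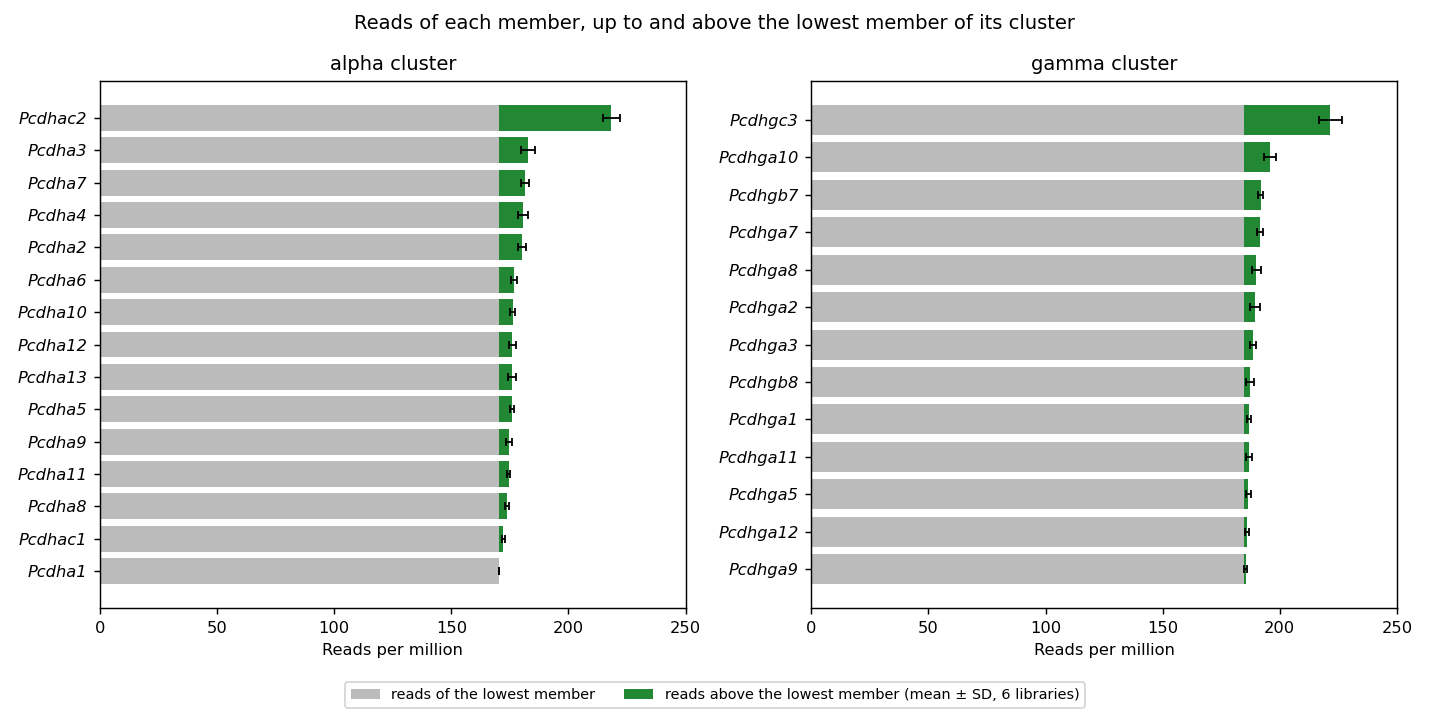
RPM (horizontal axis, from 0) of each alpha and gamma member, averaged over 6 libraries: grey bars are the mean of the lowest member, green bars the reads above it, with error bars of 1 SD of the green part over the 6 libraries. Pcdhac2 and Pcdhgc3 extend farthest, at 47.8 and 36.7 RPM above the lowest member.

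Among beta members Pcdhb3 was highest, above the next member in all 6 libraries. It stood at 7.75, 7.46 and 7.44 FPKM in vehicle and at 7.62, 5.47 and 5.72 FPKM with Chrdl1, from 277 to 504 reads. Pcdhb8 was at 5.64, 4.94 and 3.79 FPKM in vehicle and 5.33, 4.75 and 3.52 FPKM with Chrdl1, so that it fell from pair A to pair C in both groups. Pcdhb10 was at 3.92, 3.78 and 3.34 FPKM in vehicle and 3.75, 3.32 and 3.18 FPKM with Chrdl1. Pcdhb5 was at 3.51, 3.62 and 3.75 FPKM in vehicle and 3.54, 3.73 and 2.99 FPKM with Chrdl1. Pcdhb10 and Pcdhb5 could not be ordered, since Pcdhb10 was higher in only 4 of 6 libraries. The ranges of all neighbours in the beta order overlapped. The lowest, Pcdhb6, was at 0.762 to 1.01 FPKM from 48 to 80 reads and did not reach the filter for testing. Beta members are close copies of each other, and reads that fit several of them could be split or dropped by the alignment, so the values of single beta members are uncertain.

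Among non-clustered members Pcdh9, Pcdh7 and Pcdh8 were the most abundant. Pcdh9 and Pcdh7 belong with Pcdh11x to the subgroup that binds protein phosphatase, and Pcdh8 is an activity-regulated protein that drives internalisation of N-cadherin. Pcdh9 was at 30.0, 32.5 and 21.9 FPKM in vehicle and 30.9, 33.2 and 27.8 FPKM in Chrdl1 libraries. Pcdh7 was at 23.1, 34.0 and 17.2 FPKM in vehicle and 23.9, 32.3 and 22.3 FPKM in Chrdl1 libraries. Pcdh9 exceeded Pcdh7 in 5 of 6 libraries and their ranges overlapped. Pcdh8 was at 16.5, 16.8 and 12.9 FPKM in vehicle and 14.9, 18.8 and 13.4 FPKM in Chrdl1 libraries, and was below Pcdh7 in every library.

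The middle of the order held 4 genes. Pcdh17, which acts in presynaptic assembly, was at 7.36, 8.14 and 6.15 FPKM in vehicle and 7.62, 8.47 and 6.65 FPKM with Chrdl1. Pcdh18 was at 6.72, 6.67 and 7.20 FPKM in vehicle and 6.09, 6.58 and 6.91 FPKM with Chrdl1, and its range overlapped that of Pcdh17. Pcdh19, an X-linked gene mutated in an epilepsy of females, was at 4.89, 3.81 and 3.85 FPKM in vehicle and 4.33, 3.92 and 5.44 FPKM with Chrdl1. Pcdh11x, also X-linked, was at 4.37, 4.22 and 3.14 FPKM in vehicle and 4.45, 4.53 and 4.51 FPKM with Chrdl1. All 6 values of Pcdh18 lay above all 6 of Pcdh19, whereas Pcdh19 exceeded Pcdh11x in only 3 of 6 libraries.

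At the low end stood Pcdh15, Pcdh20 and Pcdh12. Pcdh15, a tip-link protein of sensory hair cells, was at 2.33, 3.54 and 2.01 FPKM in vehicle and 2.17, 3.25 and 2.35 FPKM with Chrdl1. Pcdh20 was at 1.29, 1.20 and 4.29 FPKM in vehicle and 1.43, 0.879 and 4.60 FPKM with Chrdl1, high in both libraries of pair C. Pcdh12, a protocadherin of endothelial cells, had 0 to 6 reads per library, at most 0.0660 FPKM. Of 29 other cadherins compared per length, 3 had a higher mean than Pcdh9 (the calsyntenins Clstn1 and Clstn3 at 163 and 108 FPKM, and N-cadherin, Cdh2, at 34.7 FPKM), and their median was 2.78 FPKM.

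Libraries with Chrdl1 were set against vehicle libraries to see whether 12 h of the protein altered RNA levels. No protocadherin passed the test. Of the 49 members, 47 reached FPKM of 1 in at least 3 libraries and were tested among 10390 transcripts with limma on log2(FPKM + 1); Pcdhb6 and Pcdh12 were not. At a Benjamini-Hochberg adjusted p under 0.05, 0 of 47 members were called, where 0% of all transcripts were, and 0 of 47 were at an unadjusted p under 0.05, where 0.173% of all were. This fit had no term for the pairs, so the spread between pairs enters its SEs and intervals. With the title code as a replicate block, limma called 0 of 47 (0% of all) and 1 of 47 was at an unadjusted p under 0.05, where 5.15% of all were. Voom on the recovered reads also called 0 of 47 (0% of all), with or without the block. At an unadjusted p under 0.05 it had 0 of 47 members without the block, where 0.0289% of all were, and 2 of 47 with it, where 4.71% of all were.

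That 1 member was Pcdhb3, the most abundant beta member. Its log2 fold change was -0.25 ± 0.15 (SE; interval -0.60 to 0.11; limma adjusted p = 0.9998). The pairs gave -0.021, -0.39 and -0.33, and under the block the SE was 0.10, the unadjusted p 0.0331 and the limma adjusted p 0.872. Its groups overlapped, since the Chrdl1 library of pair A lay above 2 of the 3 vehicle libraries. Pcdhb12, at 2.73, 3.62 and 2.30 FPKM in vehicle and 2.27, 2.90 and 2.02 FPKM with Chrdl1, had -0.19 ± 0.19 and was lower in each pair, by values of -0.19, -0.24 and -0.12. Pcdhb10 had -0.084 ± 0.14. The 10 tested beta members had a median log2 fold change of -0.036, against -0.028 for all tested transcripts. Of these members 4 were positive and 6 negative, where 3989 and 6401 of all 10390 tested transcripts were. Pcdhb21 swung most between pairs, at -0.00058, -0.42 and 0.68, from 36 to 105 reads.

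The largest positive values belonged to non-clustered members and came from pair C. Pcdh11x had a log2 fold change of 0.17 ± 0.16 (SE), with an interval from -0.19 to 0.54, and 0.023, 0.082 and 0.41 by pair. It was 0.055 when the vehicle library of pair C was left out. Pcdh9 had 0.13 ± 0.16, with 0.045, 0.029 and 0.33. Pcdh19 had 0.098 ± 0.17, with -0.15, 0.032 and 0.41. Pcdh7 had 0.11 ± 0.25, with 0.045, -0.072 and 0.35. With the block, the SEs of Pcdh11x, Pcdh9, Pcdh19 and Pcdh7 were 0.11, 0.076, 0.12 and 0.084. Their limma adjusted p with the block was 0.880, 0.872, 0.924 and 0.886. The 9 tested non-clustered members had a median of 0.064, with 6 of them positive, where 3989 of all 10390 tested transcripts were. Leaving out a single library turned this median to -0.032 (vehicle, pair C) and -0.0092 (Chrdl1, pair B), and raised it to 0.15 (vehicle, pair B). By pair the medians were 0.023, 0.029 and 0.15. In pair C 8 of 9 were positive, where 4094 of all 10390 tested transcripts were, and 1168 of the 1611 of 4000 bases and over. In that pair, transcripts of 4000 bases and over had a median of 0.092 and those of 2000 to under 4000 bases -0.043; the 9 non-clustered members have a median length of 4626 bases. The part of transcript length in these values was not tested. Pcdh18 was the non-clustered member lower in all 3 pairs, at -0.064 ± 0.12. Pcdh17, Pcdh8, Pcdh15 and Pcdh20 had 0.064, 0.020, -0.0044 and -0.018.

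Alpha and gamma members moved as blocks, in opposite directions in pairs B and C, and each array changed direction between these pairs. The 15 alpha members had medians of 0.025, -0.052 and 0.068 in pairs A, B and C, and 0.012 in all. The 13 gamma members had 0.041, 0.065 and -0.18, and -0.026 in all. The sign of this last median turned under quantile normalization (0.014) and voom without the block (0.012), but not under voom with the block (-0.0027). In pair C all 15 alpha members were positive and all 13 gamma members negative. Pair B had the reverse, with all 15 alpha members negative (-0.072 to -0.032) and all 13 gamma members positive (0.043 to 0.088). Over all 10390 tested transcripts, 4094 were positive and 6295 negative in pair C. Of the 1611 of 4000 bases and over, 1168 were positive and 443 negative there, with a median of 0.092. The median transcript lengths of the arrays were 5241 and 4651 bases, and the part of length was not tested. If the members of an array share most of their reads, as above, the counts of alpha and gamma members are not of separate measurements. Above the lowest member, Pcdhac2 averaged 47.6 ± 5.55 RPM in vehicle and 48.1 ± 1.81 in Chrdl1 libraries (SD, n = 3 each), and Pcdhgc3 35.9 ± 5.62 and 37.4 ± 4.98. Voom with the block gave log2 fold changes of 0.044 ± 0.079 and 0.087 ± 0.081 (SE) for these 2. Of 26 alpha and gamma members with a mean of at least 10 such reads, voom called 0 with or without the block, and 2 were at an unadjusted p under 0.05 with it, where 4.66% of all rows were. The 2 were Pcdhga8 and Pcdhga12, and Pcdhga12 had 0 to 40 such reads per library. Pcdhga8 was at 55 to 185 such reads, with -0.56 ± 0.18 and a voom adjusted p of 0.935. In each library the same lowest count was subtracted from all members of an array, so the 26 rows are not separate measurements.

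**Figure D3:**
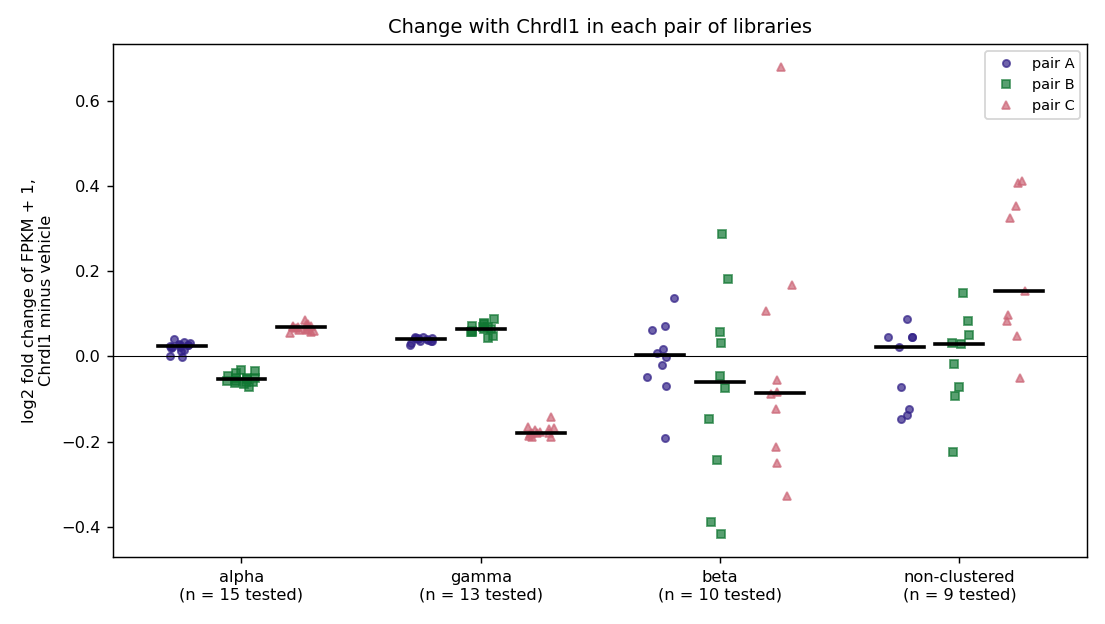
log2 fold change of FPKM + 1, Chrdl1 minus vehicle (vertical axis), of the 47 tested protocadherins in each of 3 pairs of libraries sharing a title code; points are members and black bars medians. Alpha and gamma members lie close together within a pair, and pair C has medians of 0.068, -0.18, -0.086 and 0.15 for alpha, gamma, beta and non-clustered members.

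Taken over all 47 tested rows, counts of members that moved one way in all pairs were close to those of all transcripts or below them. Higher with Chrdl1 in all 3 pairs were 4 of 47 members (Pcdh9, Pcdh11x, Pcdh17 and Pcdhb2), where 7.55% of all tested transcripts were. Lower in all 3 pairs were 5 of 47 (Pcdhb3, Pcdhb8, Pcdhb10, Pcdhb12 and Pcdh18), where 19.5% of all were. By class, 0 of 15 alpha and 0 of 13 gamma members moved one way. Of 10 beta members 1 was higher and 4 lower, and of 9 non-clustered members 3 were higher and 1 lower. If the alpha and gamma members share most of their reads, as above, the shares over 47 are not of separate measurements. They then do not settle how the other members compare with all transcripts. All the one-way members came from the 10 beta and 9 non-clustered rows. Among those rows alone, the shares higher and lower were both above those of all transcripts, a difference that was not tested. The split of one-way members by class, with 4 of 5 lower ones from the beta array, was seen after the values and was not tested.

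Differences between title codes were larger than those with treatment. A limma F test over the 3 codes, with treatment as a covariate, called 19 of 47 members, where 47.4% of all tested transcripts were called. This share of members, 40.4%, was below that of all transcripts, but the order depended on the fit. The 2 libraries of a code may share a culture, and the p-values measure the spread within codes. By class, 13 of 13 gamma, 5 of 9 non-clustered, 1 of 10 beta and 0 of 15 alpha members were called. If the members of an array share most of their reads, as above, the gamma and alpha rows are called or not called largely as blocks. The counts and shares over 47 members, here and below, are then not of separate measurements. Voom on recovered reads called 39 of 47 members, where 52.9% of all were called, and quantile normalization gave 26 of 47, where 44.7% were. Leaving out 1 library moved the count to 5 without the Chrdl1 library of pair A (30.3% of all) and to 6 without the vehicle library of pair B (43.9%). It was 32 without the vehicle library of pair C (48.8%) and 34 without the Chrdl1 library of that pair (53.7%). The other 2 left-out libraries gave 16 (vehicle, pair A; 32.4% of all) and 19 (Chrdl1, pair B; 46.1%). Whether members were called more or less often than other transcripts is therefore not settled by these fits.

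Pcdh20 differed most. The pair means were 1.36, 1.04 and 4.44 FPKM, a log2 difference of 1.21 ± 0.15 (SE) between C and A and 1.42 ± 0.15 between C and B (limma adjusted p = 2.25e-05). Both libraries of pair C lay above the other 4. The photoreceptor, amacrine and bipolar, and endothelial and mural marker sums given above moved the same way in pair C. They rest on few members, led by Crx, Prkca and Pdgfrb, and Prkca itself was not higher there. The part of these cells in the level of Pcdh20 was not tested. Pcdh12, the endothelial protocadherin, had at most 6 reads in any library, too few to compare between pairs.

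Pcdh7 and Pcdh15 were highest in pair B. Pcdh7 averaged 23.5, 33.2 and 19.8 FPKM over the pairs, with log2 differences of 0.48 ± 0.10 between B and A and -0.73 ± 0.10 between C and B (limma adjusted p = 0.000369). Pcdh15 averaged 2.25, 3.39 and 2.18 FPKM, with 0.44 ± 0.14 and -0.47 ± 0.14 (adjusted p = 0.0279). The microglial marker sum was lowest in that pair, and its part in these values was not tested. Pcdh9 and Pcdh8 were lowest in pair C, with log2 differences of -0.40 ± 0.093 and -0.41 ± 0.10 between C and B (adjusted p = 0.00971 and 0.0148). Pcdh17, Pcdh18, Pcdh19 and Pcdh11x were not called, with adjusted p of 0.0668, 0.625, 0.398 and 0.453. The called beta member was Pcdhb8, at 5.49, 4.85 and 3.65 FPKM (adjusted p = 0.0175).

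The gamma array was lowest in pair B. Pcdhga2 was at 45.5, 33.4 and 44.0 FPKM in vehicle and 46.9, 35.2 and 39.0 FPKM with Chrdl1. Pcdhga10 averaged 48.0, 36.0 and 43.0 FPKM over the pairs, and Pcdhga2 46.2, 34.3 and 41.5 FPKM, with both libraries of pair B below the other 4 (limma adjusted p = 0.00624 and 0.00505). The alpha array was highest in pair A, where Pcdhac2 averaged 44.1 FPKM against 38.4 and 38.5 FPKM in pairs B and C (adjusted p = 0.0808). By reads above the lowest member, voom called 17 of 26 alpha and gamma members between codes, where 52.6% of all rows were called. In each library the same lowest count was subtracted from all members of an array, so these 26 rows are not separate measurements. For gamma, the member with that count also changed between libraries. By this measure Pcdhac2 and Pcdhgc3 were both highest in pair A and lowest in pair C, at 51.7, 47.5 and 44.3 and at 42.0, 36.6 and 31.4 RPM. Pcdha3 fell in the same order, at 15.2, 12.7 and 9.04, a log2 difference of -0.83 between C and A (voom adjusted p = 0.00117).

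**Figure D4:**
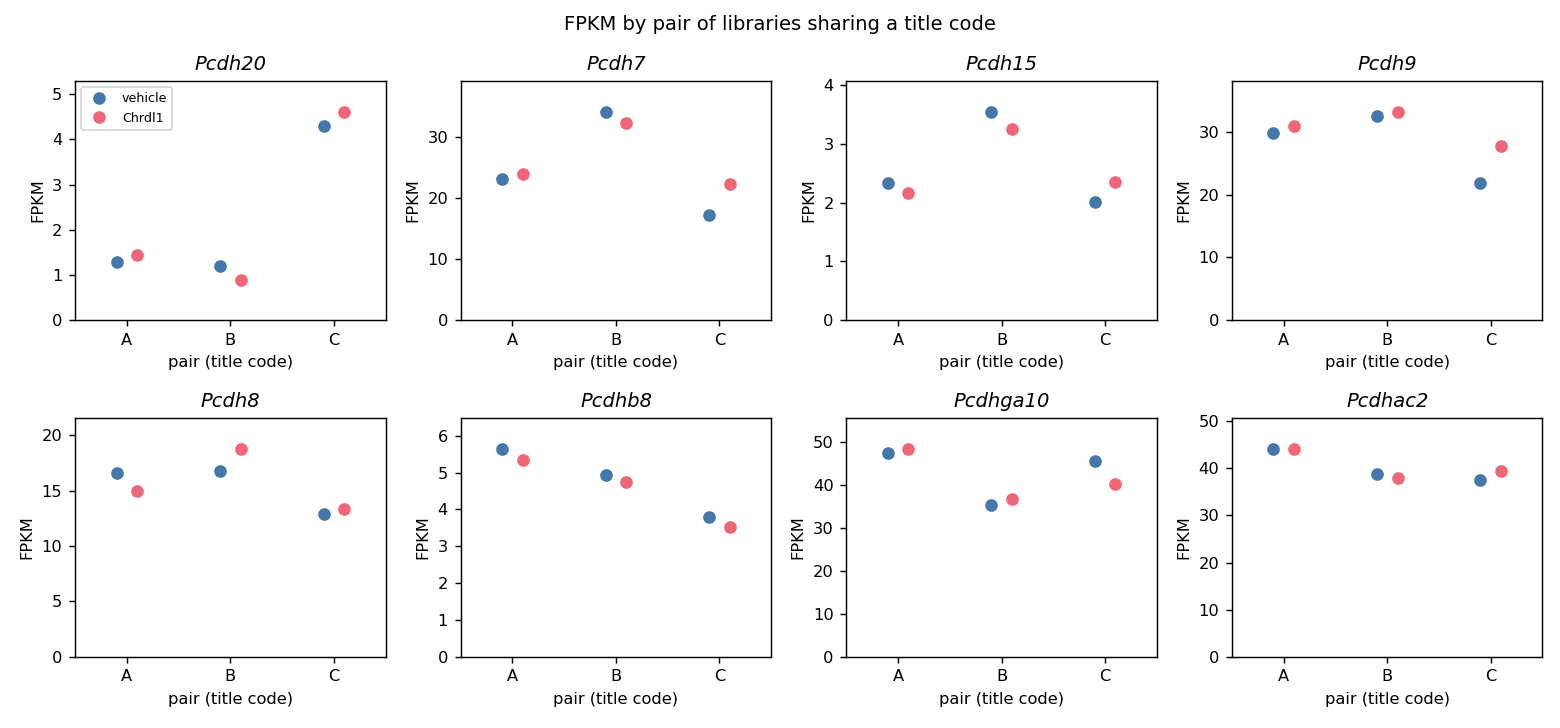
FPKM (vertical axis, from 0) of 8 protocadherins in the vehicle and Chrdl1 library of each pair sharing a title code (horizontal axis). Pcdh20 is at 4.29 and 4.60 FPKM in pair C and at 1.43 FPKM or less in the others, and Pcdh7 is highest in pair B.

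The other genes of protocadherin biology were also expressed and did not pass. Of 45 listed genes 40 had deposited values and 39 were tested. With or without the block, limma called 0 higher and 0 lower. Of their fold changes 20 were above 0 and 19 below, where 3989 and 6401 of all 10390 tested transcripts were. Among genes for array architecture and silencing, which loop or methylate the promoters, the cohesin subunits Rad21 and Smc1a averaged 44.9 and 44.1 FPKM and Wiz, a zinc finger protein, 19.5 FPKM. Ctcf, the factor that binds the promoters, named here outside the naming rule, averaged 16.7 FPKM, with a log2 fold change of 0.011 ± 0.14 (SE). Among kinases and relays bound by the cytoplasmic parts, Fyn, Ret and Marcks averaged 73.8, 39.2 and 29.2 FPKM. Ret differed widely between codes, at 55.9, 39.1 and 24.5 FPKM in vehicle. Among actin regulators, Rac1 and the WAVE complex subunits Nckap1 and Cyfip2 averaged 170.1, 101 and 90.1 FPKM. Among genes for shedding and cleavage, Psen2, Ncstn and Aph1a, of the protease that cuts shed proteins in the membrane, averaged 33.8, 32.4 and 23.6 FPKM. Among adhesion partners, Ctnnb1, Nlgn2 and Ctnna2 averaged 101, 40.6 and 39.9 FPKM.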

How the data were processed

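RNA of 6 rat RGC culture libraries was measured. The submitters' processing notes list FastQC, STAR 2.4.0k, HOMER 4.8.3 and build rn6, without the annotation release or the handling of common exons. The authors deposited 1 table of FPKM values with transcript lengths. Multiplied by length, 100% of values above 0 were whole multiples of 1 read (within the rounding of 0.0005 FPKM plus 0.01 read), which gave each library's read total.

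With limma 3.58.1 in R 4.3.3, log2(FPKM + 1) was fitted with treatment as the only term and eBayes with trend (two-sided). The added 1 makes the fold changes of low transcripts too small. A transcript entered if 3 or more libraries reached an FPKM of 1, which left 10390. Title codes were compared by an F test with treatment as a covariate. Deviations from group means correlated between libraries of a code at 0.82, 0.86 and 0.84, so the codes were taken to pair the libraries. The main fit does not use this pairing, so its SEs include the spread between pairs. The median SE of all tested transcripts was 0.16, and 0.087 with the block. Voom (limma), with scaling by a trimmed mean of log ratios, was run on recovered reads and on a table where alpha and gamma members held only reads above the lowest member. Pseudocount, filter, quantile normalization, replicate block and left-out libraries were the other alternatives. Python 3.11.15 was also used. By rule, values in every library are given for tested non-clustered members, the 4 highest of each array, the 3 higher and 3 lower members with the smallest treatment p and the 4 with the smallest code p. Members and lists were chosen with earlier results of these data known. Intervals are 95%.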

Additional observations from a re-analysis of the deposited data

How the results depend on the processing

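With Chrdl1, 0 protocadherins and 0 other transcripts were called with a pseudocount of 0.1, no filter, a filter at FPKM of 5, quantile normalization, voom, the replicate block (0 of 47 members), or without 1 library. The same held for voom with the block and without both libraries of a code, which were added after seeing the data. Fold changes near 0 turned sign: Pcdh15 (-0.0044) was 0.0088 with quantile normalization, 0.092 with voom and 0.023 with voom and the replicate block, and Pcdh20 (-0.018) was 0.023 with quantile normalization and 0.079 with voom and the block. Without 1 library, log2 fold changes ran from -0.13 to 0.17 for Pcdh15, -0.48 to 0.40 for Pcdh20, -0.032 to 0.15 for Pcdh17, -0.012 to 0.19 for Pcdh19, -0.12 to 0.36 for Pcdh7, -0.030 to 0.24 for Pcdh9, -0.11 to 0.12 for Pcdh8, -0.20 to 0.073 for Pcdhb8 and -0.12 to 0.00084 for Pcdhb5. Ranges that kept their sign were 0.055 to 0.24 for Pcdh11x, -0.38 to -0.17 for Pcdhb3 and -0.30 to -0.055 for Pcdhb12. Pcdh18, at -0.10 to -0.021, and Pcdhb10, at -0.14 to -0.045, also kept theirs. Class medians without 1 library ran from -0.059 to 0.080 (alpha), -0.098 to 0.057 (beta), -0.15 to 0.059 (gamma) and -0.032 to 0.15 (non-clustered). By reads above the lowest member (voom without the block, members with a mean of at least 10 such reads), the median was 0.036 for alpha and -0.16 for gamma. The main fit gave 0.012 and -0.026. Between codes, voom called 39 members in place of 19 (5501 of all in place of 4930), quantile normalization 26 (4648 of all), and leaving out 1 library gave 5 to 34 members and 3148 to 5581 of all transcripts; the cause was not tested. The counting of reads in common exons is not known, which limits what single alpha and gamma values can show.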
